A study of Homo sapiens with 20 samples.

Results

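The genes of the NF-kB and inflammatory cytokine response described here were examined for where RNA polymerase II (POL2) and the transcription factor MYC were found on them in a human prostate cancer cell line. They are the chemokine genes CXCL8, CXCL1 and CXCL2, the cytokine genes IL6 and LIF, the feedback genes NFKBIA, TNFAIP3 and BIRC3, and the NF-kB subunit genes RELB and NFKB2, which makes 10 of the 20007 protein-coding genes considered. The genes were chosen by name, with earlier results of these data known. For each one, ChIP-seq summits (the single base at which the signal of a called peak is highest) were collected within 1 kb of any annotated transcription start site (TSS) of the gene and along its body.

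NF-kB is a family of dimeric transcription factors that are held in the cytoplasm by inhibitor proteins and released when receptors for TNF, interleukin-1 or microbial products activate the IkB kinases. Once in the nucleus, the dimers bind kappaB elements in promoters and enhancers of chemokine and cytokine genes and of the genes for their own inhibitors, so that the response limits itself. PC-3 cells are known for active NF-kB and for secretion of IL-8 and IL-6.

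The study used PC-3, an established epithelial line from a bone metastasis of prostate cancer. Parental cells (WT) were compared with a knockout of SLK, a STE20-family serine/threonine kinase; all SLK-KO libraries carry the name PSD10, whose meaning is not given, so whether they come from 1 clone is not known. No treatment is named for either group. Chromatin was precipitated with an antibody to MYC or to POL2, in 3 libraries for each antibody and genotype, 12 in all, and the p-values below measure only the spread between these libraries.

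Each library is represented by a list of summits with a score, the -log10 of a q-value, and no read counts. The POL2 lists held 17126, 5047 and 9925 summits in WT replicates 1, 2 and 3 and 19017, 15436 and 16298 in SLK-KO replicates 1, 2 and 3, so WT replicate 2 stands apart by its short list. The MYC lists held 365, 201 and 267 summits in WT and 1218, 1420 and 988 in SLK-KO. Because the lists differ in length in the same direction as the genotypes, presence, numbers and ranks at promoters are given from the full lists and from lists of equal length, which keep the best-scored 5047 POL2 or 201 MYC summits of every library. Positions and counts near gene ends are from the full lists only. A rank counts from the best-scored summit of a library, which has rank 1. Of 4 epithelial markers, KRT8 and KRT18 had a POL2 promoter summit in all 6 POL2 libraries, EPCAM in 4 and CDH1 in 1; none of 4 leukocyte markers had one in any library, and neither did the prostate marker KLK3.

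The promoters of these genes are best known by their kappaB elements. Of them, 6 are shown whose cut stretch, from 110 bases before the start, holds a whole match. NFKB2 also has matches close to its starts, the closest 21 to 12 bases before a start. No whole match lay in the cut stretches of NFKB2. The sequences are from RefSeq (GRCh38.p14) and were cut before the first annotated exon base. Capitals mark the letters GGNNTTTCC (either strand) or a match to the 10-letter kappaB consensus, which overlaps them.

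CXCL8: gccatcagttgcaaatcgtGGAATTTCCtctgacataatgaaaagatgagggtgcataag
CXCL1: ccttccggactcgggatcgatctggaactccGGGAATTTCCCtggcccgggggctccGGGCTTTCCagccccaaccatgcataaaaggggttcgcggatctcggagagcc
CXCL2: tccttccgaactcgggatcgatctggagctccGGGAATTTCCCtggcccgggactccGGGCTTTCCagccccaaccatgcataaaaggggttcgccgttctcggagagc
IL6: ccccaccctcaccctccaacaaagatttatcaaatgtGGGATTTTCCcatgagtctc
NFKBIA: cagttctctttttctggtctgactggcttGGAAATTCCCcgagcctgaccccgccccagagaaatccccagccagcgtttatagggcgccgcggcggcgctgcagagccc
TNFAIP3: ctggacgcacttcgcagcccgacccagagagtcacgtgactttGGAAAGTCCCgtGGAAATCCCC

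The stretches lie at chr4:73740459-73740518 (plus strand) for CXCL8, chr4:73869283-73869392 (plus) for CXCL1, chr4:74099197-74099305 (minus) for CXCL2, chr7:22727090-22727146 (plus) for IL6, chr14:35404750-35404859 (minus) for NFKBIA and chr6:137867149-137867213 (plus) for TNFAIP3. Of the 10 genes, 8 were matched to a RefSeq promoter window, and LIF and RELB were not. GGNNTTTCC was found in the 250 bases before the start of 8 of these 8 genes, against 7.52% of 15843 protein-coding genes with a window. The kappaB consensus was found in 7 of 8 (all but CXCL8), against 7.51%. The E-box CACGTG, the preferred element of MYC dimers, was found in 1 of 8, TNFAIP3 (visible above in lower case), against 9.73%. TATAAA was found in CXCL8 and NFKBIA, against 11.9%. CXCL1 and CXCL2 have nearly the same promoter: each holds 2 GGNNTTTCC matches, the second ending 45 bases before the start. A match is a description of the letters and was not tested as a binding site.

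POL2 was found at the promoters of these genes in both genotypes. In the full lists, 8 of the 10 genes carried a POL2 promoter summit (1 kb or less from a start) in at least 2 WT libraries, against 35.4% of all protein-coding genes, and 10 of 10 in at least 2 SLK-KO libraries, against 47.4%. By library the number was 10, 7 and 8 in WT and 9, 10 and 10 in SLK-KO. CXCL1, CXCL2, NFKBIA, TNFAIP3, BIRC3, RELB and NFKB2 had a promoter summit in all 6 libraries, that is 7 of 10 against a background of 18.1%. CXCL8 and IL6 lacked one in WT replicates 2 and 3, and LIF lacked one in WT replicate 2 and SLK-KO replicate 1.

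With lists of equal length the order of the genotypes turned round for the group. Then 8 genes had a promoter summit in at least 2 WT libraries (22.6% of all genes) and 4 in at least 2 SLK-KO libraries (24.3%). The 4 were CXCL1, CXCL2, LIF and NFKBIA, and TNFAIP3, BIRC3, RELB and NFKB2 were the 4 that met the criterion only in WT. By library the number was 7, 7 and 8 in WT and 3, 8 and 4 in SLK-KO, so SLK-KO replicate 2 lies among the WT values. WT replicate 2 is kept whole at this length, and BIRC3 and RELB counted there with scores of 2.5 and 2.31. Some SLK-KO summits just past rank 5047 had higher scores but were dropped. Among them were TNFAIP3 at rank 5521 and 5172 (scores 16.8 and 15.8) in SLK-KO replicates 1 and 3. NFKB2 at rank 5326 (score 15.2) in SLK-KO replicate 3 was another. No test was made on these counts.

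**Figure D1:**
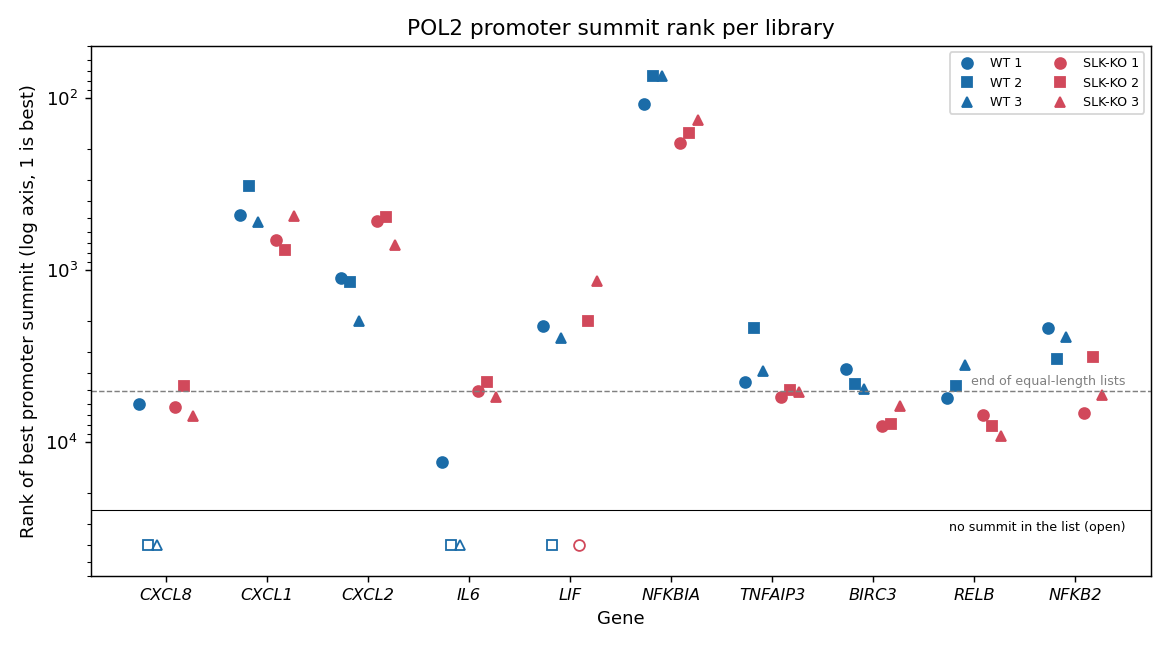
Rank of the best-scored POL2 summit within 1 kb of a TSS (log axis, rank 1 at the top) for the 10 genes in 3 WT (blue) and 3 SLK-KO (red) libraries; open symbols below the line have no promoter summit, and the dashed line is the end of the equal-length lists at 5047. NFKBIA has the best ranks in every library, CXCL2 is better in all 3 SLK-KO libraries, and BIRC3 passes the dashed line in SLK-KO only.

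Among the chemokine genes, whose products attract neutrophils through the receptors CXCR1 and CXCR2, CXCL2 had the better POL2 ranks in SLK-KO and CXCL1 did not. CXCL2 (ENSG00000081041.9, chr4:74097040-74099196, minus strand) had its promoter summit at rank 1111, 1178 and 1980 in the WT libraries and at rank 521, 496 and 717 in the SLK-KO libraries. The groups do not overlap, and every SLK-KO library placed CXCL2 higher in its list. The geometric mean rank in lists of equal length was 1370 in WT and 570.0 in SLK-KO, a log2 difference of -1.27 (exact permutation test, two-sided, 3 against 3 libraries, p = 0.1; Benjamini-Hochberg adjusted p = 0.434). Among 6783 genes tested this way, 13.6% had a better rank in every SLK-KO than in every WT library and 9.46% a worse one, and 3 against 3 libraries cannot give a p below 0.1. As a percentile of the full list, CXCL2 stood at 6.49%, 23.3% and 19.9% in WT and at 2.74%, 3.21% and 4.4% in SLK-KO, which again do not overlap. Chromosome 4 held 3.18%, 2.44% and 2.93% of the POL2 summits in WT and 3.31%, 3.2% and 3.22% in SLK-KO. Of 219 genes tested on it, 12.8% had a better rank in every SLK-KO library and 7.31% a worse one. The part of the chromosome in the CXCL2 difference was not tested.

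CXCL1 (ENSG00000163739.5, chr4:73869393-73871308, plus strand) had the second-best rank of the group after NFKBIA in 4 of the 6 libraries, CXCL2 being ahead of it in SLK-KO replicates 1 and 2. Its promoter summit stood at rank 480, 326 and 530 in WT and 676, 773 and 488 in SLK-KO, and the 2 genotypes overlap. The log2 difference of rank was 0.54 (exact permutation p = 0.2, adjusted p = 0.643). CXCL8 (ENSG00000169429.12, chr4:73740519-73743716, plus strand), the gene of IL-8, had worse-ranked POL2 promoter summits than CXCL1 and CXCL2 in every library that listed one. Its promoter summit stood at rank 6054 in WT replicate 1, was not listed in WT replicates 2 and 3, and stood at 6325, 4740 and 7078 in SLK-KO. As the WT replicate 2 list ends at 5047, a summit of the rank seen in most libraries could not be listed there; the WT replicate 3 list runs to 9925.

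The 3 chemokine genes lie in a stretch of 358.7 kb on chromosome 4 that holds 10 protein-coding genes, and POL2 summits there were concentrated on a few starts. The stretch held 9, 3 and 5 POL2 summits in WT and 10, 9 and 10 in SLK-KO; with lists of equal length it held 4, 3 and 3 and 3, 4 and 4. CXCL3, the gene next to CXCL2, had promoter ranks of 2142, 2588 and 6072 in WT and 958, 1216 and 1720 in SLK-KO, which do not overlap (exact permutation p = 0.1, adjusted p = 0.434). CXCL3 had 1, 1 and 1 POL2 summits over its span and 1 kb on either side in WT and 2, 3 and 3 in SLK-KO. CXCL6 stood at 3875 and 2578 in WT replicates 1 and 3 and at 5344, 7727 and 4788 in SLK-KO. CXCL5 had a promoter summit in SLK-KO replicate 1 alone, at rank 15768. No MYC summit lay in the stretch in any library. CXCL1, CXCL2 and CXCL3 are near copies of each other: in the 500 bases on either side of their starts, aligned bases were the same for 86.1% between CXCL1 and CXCL2, 85.5% between CXCL1 and CXCL3 and 85% between CXCL2 and CXCL3. Of 952 stretches of 50 bases, 13.6% were shared without a mismatch between CXCL2 and CXCL3, against 0.21% and 0.63% between CXCL1 and these 2 genes. How reads from such stretches were placed was not tested, so the values of CXCL2 and CXCL3 may not be fully separate.

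**Figure D2:**
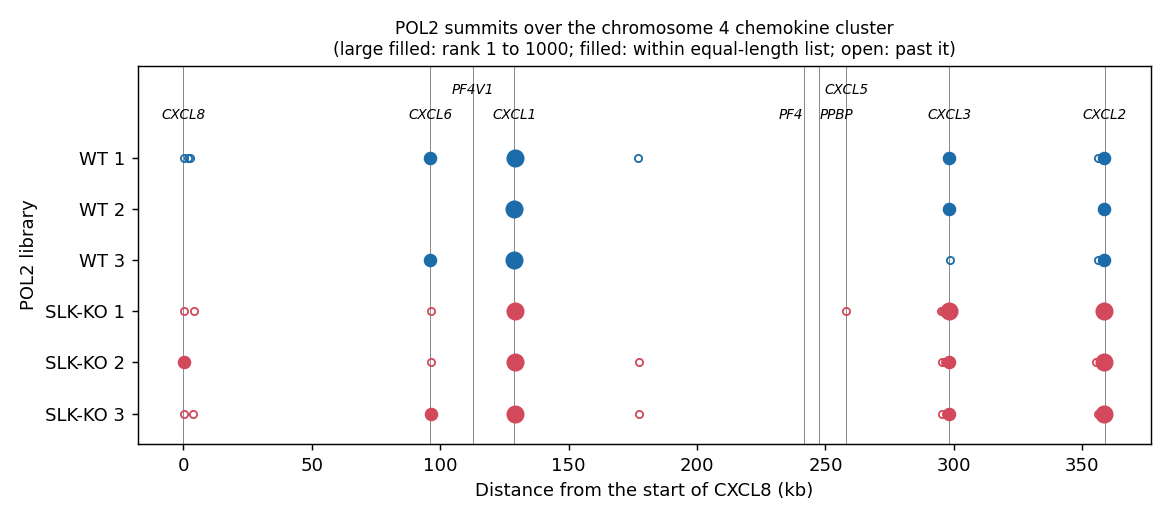
POL2 summits along the chemokine stretch of chromosome 4, by distance from the start of CXCL8 (kb), in 3 WT (blue) and 3 SLK-KO (red) libraries; grey lines mark starts of named genes, large filled circles rank 1 to 1000, small filled circles the rest of the equal-length list and open circles summits past it. CXCL1 has a large circle in all 6 libraries, and CXCL2 has one in the 3 SLK-KO libraries only.

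Of the cytokine genes, IL6 had POL2 summits mainly in SLK-KO lists and LIF in both genotypes. IL6 (ENSG00000136244.12, chr7:22725884-22732002, plus strand) encodes interleukin-6, which signals through IL6R and IL6ST. Its best promoter summit stood at rank 13116 in WT replicate 1 and was not listed in WT replicates 2 and 3. In SLK-KO it stood at 5106, 4472 and 5523. All 3 SLK-KO libraries were better than all WT libraries by percentile of the full list (76.6% in WT replicate 1, and 26.8%, 29% and 33.9% in SLK-KO; exact permutation p = 0.1, adjusted p = 0.426). By this measure 23.2% of 10764 genes were better and 0.288% worse in every SLK-KO library, so a gene that was better is common. With lists of equal length only SLK-KO replicate 2 kept the IL6 summit, and the ranks no longer differed in all libraries (exact permutation p = 1). Over the gene and 1 kb on either side, IL6 had 1, 0 and 0 summits in WT and 2, 3 and 1 in SLK-KO, a difference of 1.67 (exact permutation p = 0.2, adjusted p = 1). One of the 3 summits in SLK-KO replicate 2 lay 989 bases past the IL6 start and 576 bases from the start of STEAP1B.

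LIF (ENSG00000128342.5, chr22:30240453-30246759, minus strand) encodes leukemia inhibitory factor, an IL-6 family cytokine that acts through LIFR and IL6ST. Its best promoter summit stood at rank 2111 in WT replicate 1, 2481 in WT replicate 3, 1997 in SLK-KO replicate 2 and 1162 in SLK-KO replicate 3, and the genotypes overlap (exact permutation p = 0.6, adjusted p = 0.966). WT replicate 2 had 5 summits over the gene and 1 kb on either side, more than any other library (1, 5 and 2 in WT and 1, 2 and 1 in SLK-KO). Its nearest one to the start lay 1082 bases from a LIF TSS, just outside the 1 kb window, and others followed at 2052, 3098 and 4699 bases past the canonical start. SLK-KO replicate 1 had a single summit, 164 bases past the gene end, at rank 1685.

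The 3 feedback genes had POL2 promoter summits in all 6 libraries, and with lists of equal length all 3 ranked worse in every SLK-KO library. NFKBIA (ENSG00000100906.12, chr14:35401079-35404749, minus strand) encodes IkBalpha, the inhibitor that NF-kB itself induces. Its promoter summit stood at rank 109, 75 and 75 in WT and at 184, 160 and 135 in SLK-KO. The groups do not overlap, yet every library held NFKBIA among its best 184 summits. The geometric mean rank was 85.0 in WT and 158 in SLK-KO, a log2 difference of 0.90 (exact permutation p = 0.1, adjusted p = 0.434). By percentile of the full list the values were 0.636%, 1.49% and 0.756% in WT and 0.968%, 1.04% and 0.828% in SLK-KO, and these overlap. The genes whose percentiles came closest to those of NFKBIA over the 6 POL2 libraries, among 3614 genes with a promoter summit in all of them, were EXT1 (mean absolute difference 0.127 percentage points), PMAIP1 (0.19) and RND3 (0.191).

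TNFAIP3 (ENSG00000118503.18, chr6:137867214-137883314, plus strand) encodes A20, a ubiquitin-editing enzyme that shuts off signalling to the IkB kinases. Its promoter summit stood at rank 4471, 2194 and 3871 in WT and 5521, 5002 and 5172 in SLK-KO. These do not overlap, although the nearest 2 libraries, WT replicate 1 and SLK-KO replicate 2, lay close together. The geometric mean rank with lists of equal length was 3360 in WT and 5030 in SLK-KO (log2 difference 0.58, exact permutation p = 0.1, adjusted p = 0.434). By percentile TNFAIP3 stood at 26.1%, 43.5% and 39% in WT and 29%, 32.4% and 31.7% in SLK-KO, which overlap. Chromosome 6 held between 4.06% and 4.39% of POL2 summits in WT and between 4.52% and 4.59% in SLK-KO. Of 309 genes tested on it, 12.9% had a better rank in every SLK-KO library and 9.06% a worse one. The part of the chromosome in the TNFAIP3 result was not tested.

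BIRC3 (ENSG00000023445.17, chr11:102317484-102339403, plus strand) encodes cIAP2, a ubiquitin ligase of the TNF receptor complex. Its single POL2 summit stood at rank 3788, 4639 and 4923 in WT and 8137, 7854 and 6190 in SLK-KO. It was inside the equal-length list in all 3 WT libraries and in none of the SLK-KO libraries, so its summit number there was 1, 1 and 1 against 0, 0 and 0 (exact permutation p = 0.1, adjusted p = 1). BIRC3 was the only one of the 10 genes whose equal-length summit numbers did not overlap; 1.86% of 7249 genes tested were lower in every SLK-KO library and 3.1% higher. The log2 difference of its equal-length rank was 0.19 (exact permutation p = 0.1, adjusted p = 0.434). In it every SLK-KO library counts as 1 place past the list end. By percentile the values were 22.1%, 91.9% and 49.6% in WT and 42.8%, 50.9% and 38% in SLK-KO, which overlap. BIRC2, the paralogue of BIRC3 and the next gene, had ranks of 1087, 653 and 742 in WT and 2435, 1966 and 2207 in SLK-KO. Chromosome 11, which holds both, had 5.81%, 6.7% and 5.88% of the POL2 summits in WT and 5.43%, 5.16% and 5.28% in SLK-KO. Of 425 genes tested on it, 5.18% had a better rank in every SLK-KO library and 13.6% a worse one, and the part of the chromosome in the BIRC3 result was not tested.

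The subunit genes RELB and NFKB2, whose products form the main dimer of the non-canonical pathway, had promoter summits in all 6 libraries, and with lists of equal length their ranks overlapped between genotypes. RELB (ENSG00000104856.15, chr19:45001461-45038192, plus strand) stood at rank 5566, 4731 and 3575 in WT and 6981, 8083 and 9314 in SLK-KO. In the full lists these ranks do not overlap, and by percentile (32.5%, 93.7% and 36% against 36.7%, 52.4% and 57.1%) they do. With lists of equal length, in which WT replicate 1 also loses the summit, the log2 difference was 0.20 (exact permutation p = 0.4, adjusted p = 0.75). NFKB2 (ENSG00000077150.21, chr10:102394110-102402524, plus strand) stood at rank 2196, 3293 and 2453 in WT and 6821, 3214 and 5326 in SLK-KO. SLK-KO replicate 2 lay inside the WT range, and the log2 difference with lists of equal length was 0.74 (exact permutation p = 0.2, adjusted p = 0.643).

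Over all 10 genes, 1 had a better equal-length POL2 rank in every SLK-KO library (CXCL2) and 3 had a worse one (NFKBIA, TNFAIP3 and BIRC3), beside the 13.6% and 9.46% of all genes given above. The median log2 rank difference of the 10 genes was 0.19, against -0.0079 over the 6783 genes tested. By percentile of the full list the calls were 2 better (CXCL2 and IL6) and 0 worse, beside 23.2% and 0.288% of 10764 genes. Both counts are near these shares. By rank among the best 3821 genes with a promoter summit in each library, CXCL2 was better and NFKBIA and NFKB2 were worse in every SLK-KO library. No share of all genes was set beside this measure or beside the rank in full lists, so these calls have no background. No adjusted p-value fell below 0.05 for any gene by either measure, and none of the unadjusted exact permutation p-values could, since the smallest is 0.1. The calls for these genes therefore depended on the measure. CXCL2 was better by all of the rank measures used, and NFKBIA was worse by all but the percentile. TNFAIP3 and BIRC3 were worse by rank in equal-length and full lists but not by the other measures. Each library was left out in turn for equal-length ranks only. There CXCL2 stayed better and NFKBIA, TNFAIP3 and BIRC3 stayed worse every time. The median percentile of the promoter summits that were listed was 17.5%, 43.5% and 24.9% for these genes in WT (28.2%, 39.7% and 36.4% for all genes with one) and 29%, 24.9% and 32.2% in SLK-KO (26.8%, 30.4% and 29.8%).

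The number of POL2 summits over each gene and 1 kb on either side did not separate the genotypes in the full lists. None of the 10 genes was higher in every SLK-KO library, against 6.54% of 11581 genes tested, and none was lower in every one, against 0.0345%. CXCL1 and BIRC3 had 1 summit in each of the 6 libraries. CXCL8 had 3, 0 and 0 in WT and 2, 1 and 2 in SLK-KO. CXCL2 had 2, 1 and 2 in WT and 1, 1 and 2 in SLK-KO, and NFKBIA 1, 2 and 2 against 1, 1 and 1. TNFAIP3 had 2, 1 and 1 against 1, 1 and 1, RELB 2, 1 and 2 against 2, 2 and 2, and NFKB2 2, 2 and 1 against 1, 1 and 2. The mean number was higher in SLK-KO for 3 genes, lower for 5 and equal for 2, with a median difference of -0.167; over all genes tested it was higher for 7923 and lower for 1279 of 11581, with a median of 0.333. The smallest exact permutation p among these genes was 0.2 (IL6), and every adjusted p was 1. Without WT replicate 1, whose summits were the only WT ones at CXCL8 and IL6, both genes had more summits in every SLK-KO library.

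Most promoter summits lay within about 100 bases of the canonical start, and the positions were not tested between genotypes. At NFKBIA the summit lay 38, 49 and 29 bases past the canonical start in WT and 58, 30 and 51 in SLK-KO, within the 5' UTR. At CXCL1 it lay at 66, 31 and 45 in WT and 93, 62 and 64 in SLK-KO, and at CXCL2 at 97, 34 and -1 against 23, 30 and 41. The printed sequences end just before these places. At TNFAIP3 it lay at 21, 40 and 41 against 7, 20 and 45. RELB summits lay further in, at 267, 169 and 336 in WT and 375, 384 and 386 in SLK-KO, so every SLK-KO summit was past every WT one, in an intron or, in WT replicate 2, in a coding exon. The share of all genes whose summit positions separate in this way was not computed. CXCL8 summits lay at 8 in WT replicate 1 and at 77, 59 and 22 in SLK-KO. The best IL6 summit lay at 36 in WT replicate 1 and at -11, -521 and 80 in SLK-KO, and that of LIF at 358 and 104 in WT replicates 1 and 3 and at 65 and 37 in SLK-KO replicates 2 and 3. BIRC3 summits were spread on both sides of the start, at 93, -308 and -312 in WT and -93, 62 and -252 in SLK-KO. NFKB2 has 18 annotated starts, and its best or second summit lay near the upstream ones, at -1391, -1390 and -1078 in WT and -1312 and -1370 in SLK-KO replicates 1 and 2; SLK-KO replicate 3 had its summit at -51.

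**Figure D3:**
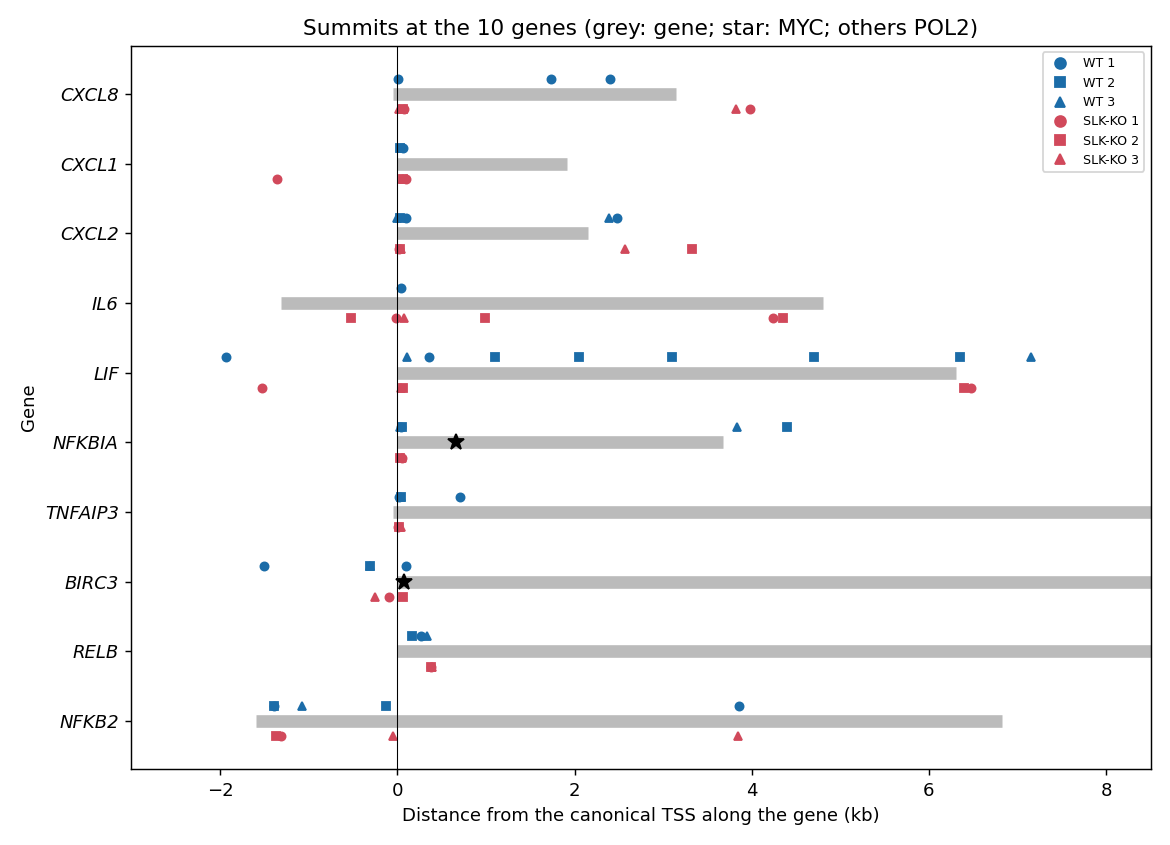
Summits of all 12 libraries at the 10 genes by distance from the canonical start (kb, along the direction of transcription); grey bars are the genes (long genes are cut at the right edge), blue symbols WT POL2, red symbols SLK-KO POL2 and stars MYC. Most POL2 summits stand close to the line at 0, while IL6, LIF, CXCL8, CXCL2 and NFKBIA also have summits near their 3' ends.

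Some of the short genes also carried POL2 near their 3' end, where polymerase is known to slow before it is released. A zone from 1 kb before to 2 kb past the gene end, and more than 1 kb from any protein-coding start, held a POL2 summit in at least 2 of 6 libraries at 5 of the 10 genes, against 8.49% of 9942 genes with a promoter summit in at least 2 libraries; this zone was set after the values were seen. The genes were CXCL8 (3 libraries), CXCL2 (4), IL6 (2), LIF (4) and NFKBIA (2). CXCL1, TNFAIP3, BIRC3, RELB and NFKB2 had none. At NFKBIA the summits were in WT replicates 2 and 3 only, 729 and 161 bases past the gene end, at rank 1753 and 2851. At IL6 they were in SLK-KO replicates 1 and 2 only, in a coding exon near the gene end, at rank 16128 and 13712.

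MYC summits were found at 2 of the 10 genes, both in SLK-KO lists and both low in them. NFKBIA had a MYC summit in SLK-KO replicate 3, at rank 987 of 988 with a score of 1.33, in an intron 664 bases past the canonical start and 55 bases from another NFKBIA start. BIRC3 had one in SLK-KO replicate 1, at rank 917 of 1218 with a score of 3.79, in the 5' UTR 75 bases past the start. These 2 of 10 compare with 9.67% of all protein-coding genes that had a MYC promoter summit in at least 1 of 6 libraries. With lists of equal length the number was 0, against 2.4%. Both ranks exceed 365, the length of the longest WT list, so a summit of that rank could not appear in WT. No CACGTG lay within 100 bases of either summit. At the other 8 genes, which include CXCL8, IL6 and the TNFAIP3 promoter with its E-box, no library listed a MYC summit, and no MYC summit lay within 50 kb of any of the 10 genes away from coding starts.

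Away from protein-coding starts, LIF had more POL2 sites around it than the other genes. Within 50 kb of LIF and more than 1 kb from every protein-coding start there were 15, 10 and 11 summits in WT and 13, 10 and 8 in SLK-KO, while each of the other 9 genes had 0 to 4 in any library. The following sites (summits chained when 500 bases or less apart) were singled out after their ranks were seen. The share of all POL2 sites away from promoters that separate the genotypes in this way was not computed. At chr22:30196656-30197131, about 50 kb past the LIF start and nearer to LIF than to any other coding start, the best rank was 2162, 511 and 472 in WT and 3436, 6036 and 8498 in SLK-KO. The rank of 511 and that of 472 are better than the rank of any LIF promoter summit. At chr22:30205571-30207310 it was 3376, 3356 and 3774 in WT and 11433, 7823 and 8010 in SLK-KO. This stretch includes summits as near as 115 bases to a start of ENSG00000225676, a gene that is not protein-coding. At chr22:30192753-30192926 it was 3737, 3253 and 3934 in WT and 8053, 9572 and 7063 in SLK-KO. Upstream of LIF, at chr22:30252807-30253410, it was 4464, 4755 and 5846 in WT and 9365 and 14613 in SLK-KO replicates 1 and 2, with no summit in SLK-KO replicate 3. These 4 sites ranked better in every WT library in the full lists, but only the first was also better by percentile (12.6%, 10.1% and 4.76% in WT and 18.1%, 39.1% and 52.1% in SLK-KO). By percentile the site at 30205571 (19.7%, 66.5% and 38% against 60.1%, 50.7% and 49.1%) and the site at 30192753 (21.8%, 64.5% and 39.6% against 42.3%, 62% and 43.3%) overlapped. So did the upstream site (26.1%, 94.2% and 58.9% in WT, 49.2% and 94.7% in SLK-KO replicates 1 and 2). With lists of equal length the first was kept in the 3 WT libraries and in SLK-KO replicate 1. The sites at 30205571 and 30192753 were kept in the 3 WT libraries and in no SLK-KO library, and the upstream one in WT replicates 1 and 2 alone. Not all sites around LIF ranked better in WT. The site at chr22:30210572-30210777 stood at rank 4466 and 2480 in WT replicates 2 and 3 and at 4393, 7538 and 7451 in SLK-KO. Just past the gene end, chr22:30240289-30240413 stood at 3357 in WT replicate 2 and at 1685 and 2800 in SLK-KO replicates 1 and 2. Chromosome 22 held 1.87%, 1.66% and 1.85% of POL2 summits in WT and 1.76%, 1.65% and 1.75% in SLK-KO, which overlap.

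A site beside CXCL2 went the other way. At chr4:74109696-74110148, between -10953 and -10501 from the CXCL2 start and 4026 to 4478 bases from the start of MTHFD2L, the rank was 13267 in WT replicate 1 and 8541 in WT replicate 3, with no summit in WT replicate 2, and 3917, 3077 and 3001 in SLK-KO. It was in the equal-length list of the 3 SLK-KO libraries and of no WT library, and by percentile it stood at 77.5% and 86.1% in WT and 20.6%, 19.9% and 18.4% in SLK-KO. Further out, at chr4:74117060-74117499, summits were listed in the SLK-KO libraries alone, at rank 7668, 7247 and 7142, and with lists of equal length in no library; this site is nearer to MTHFD2L (2886 to 3325 bases). Both sites were singled out after their ranks were seen, and the share of all such sites that separate in this way was not computed. For comparison, 23.2% of genes tested had a better promoter percentile in every SLK-KO library. Which gene, if any, these sites act on was not tested.

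**Figure D4:**
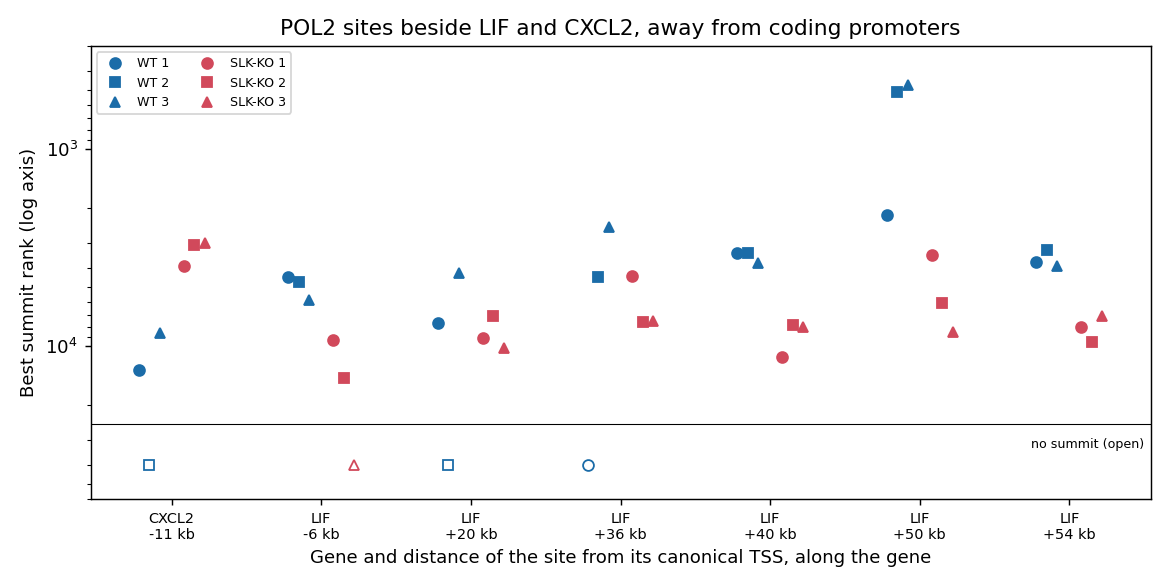
Best POL2 rank (log axis, better ranks at the top) at sites beside CXCL2 and LIF more than 1 kb from any protein-coding start, in 3 WT (blue) and 3 SLK-KO (red) libraries; open symbols have no summit. The site 11 kb upstream of CXCL2 ranks better in SLK-KO, and the LIF site just upstream and the 3 farthest ones rank better in WT in these full lists.

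The rest of the pathway was read from 6 lists with 51 genes. POL2 promoter summits were present in at least 2 WT libraries for 21 of 51 and in at least 2 SLK-KO libraries for 28 of 51 (background 35.4% and 47.4%), and with lists of equal length for 16 and 15 (22.6% and 24.3%). In none of the 6 libraries was there one for 19. Of 7 other subunits and inhibitors, 4 met the WT and 5 the SLK-KO criterion. NFKBIZ, a nuclear IkB protein, ranked even above NFKBIA, at 43, 36 and 45 in WT and 52, 48 and 43 in SLK-KO. RELA, the main activating subunit, stood at 5802 in WT replicate 1 and 9205, 11107 and 6007 in SLK-KO. Of 10 kinases and adaptors, 8 met each criterion. Of 7 upstream receptors, 0 met the WT and 2 the SLK-KO criterion, and 5, among them IL1R1, CD40, TLR2 and TLR4, had no promoter summit in any library. Of 12 other cytokines and chemokines 3 met each, and 6, among them CCL2, CCL20, IL1A and CXCL10, had none anywhere. Of these, TNF lies, like the target gene IER3 that also had none, in the MHC, where summits that the lists place on alternate haplotype sequences were not assigned to genes.

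Of the 5 receptors for the cytokines described here, CXCR1 and CXCR2 had no POL2 promoter summit in any library, while IL6ST had one in all 6. IL6R stood at 4598 and 4823 in WT replicates 1 and 3 and at 3086, 3025 and 3218 in SLK-KO. LIFR stood at 4814 in WT replicate 1 and at 3563, 2594 and 4343 in SLK-KO. Both had a better rank in every SLK-KO library with lists of equal length, as did CXCL3, IL1B and TNIP1, which makes 5 of the 21 genes tested (background 13.6%). TRAF6 and BIRC2 had a worse one, which makes 2 of 21 (background 9.46%), a share near the background (exact permutation p = 0.1 and adjusted p = 0.434 each). IL1B, the gene of interleukin-1 beta, stood at 2261, 2304 and 3079 in WT and 933, 734 and 1439 in SLK-KO. TNIP1, which encodes a partner of A20, stood at 2820, 2940 and 1522 in WT and 1204, 859 and 1298 in SLK-KO. In the full lists, 3 of the 51 genes had more POL2 summits in every SLK-KO library (background 6.54%), and none did with lists of equal length (background 3.1%). The first share is near the background, but the backgrounds cover only genes with a POL2 summit in at least 1 library. Some of the 51 had none, so the shares are not on the same basis. The 3 genes were CXCL3, TNIP1 (2, 1 and 1 against 6, 5 and 7) and BCL2A1 (0, 0 and 0 against 1, 3 and 1), and were named after their values were seen. MYC promoter summits were listed for 4 of 51 genes (NFKBIZ, IL6R and BCL2L1 in SLK-KO replicate 1 and SOD2 in SLK-KO replicate 2), against 9.67% of all genes, and for 0 with lists of equal length, against 2.4%.

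**Figure D5:**
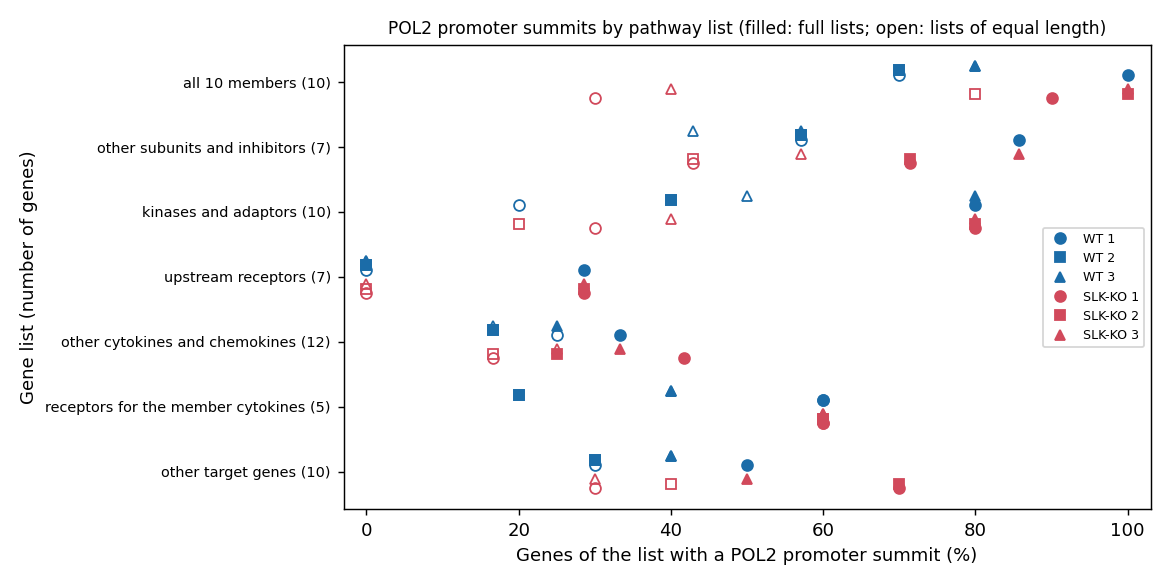
Share of genes (%) with a POL2 promoter summit for the 10 genes and for 6 lists of other pathway genes, in 3 WT (blue) and 3 SLK-KO (red) libraries; filled symbols are full lists, open symbols lists of equal length, and equal values cover each other. The 10 genes lie at 70% to 100% in the full lists and at 30% to 80% in equal-length lists, and the upstream receptors are at 0% in all equal-length lists.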

How the data were processed

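Summit lists from 12 ChIP-seq libraries (POL2 and MYC, 3 WT and 3 SLK-KO each) were used; 6 IgG and 2 input libraries of the 20 samples were not used here. Per the submitters' processing notes the tools were nf-core/chipseq 2.1.0, Trim Galore 0.6.7, BWA 0.7.18-r1243 and MACS3 3.0.1, with hg38 (GRCh38.p14). Each deposited list gives 1-base summits and a score that was taken as the -log10 of a q-value, because the lowest scores lie just above 1.30103, the -log10 of 0.05. The lists hold no counts, so read depth is unknown and no interval that needs it is given. Peaks were listed per library, not pooled.

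The 23 main chromosomes named in the lists were found in the reference, and no summit lay past a sequence end. Summits were assigned to protein-coding genes of GENCODE release 44 (within 1 kb of any TSS, or over the span and 1 kb on either side). Summit numbers and log2 ranks per library were tested with an exact permutation test, two-sided, over 6 libraries (20 relabellings, smallest p 0.1) with Benjamini-Hochberg adjustment over all genes with a summit; a missing summit counts as 1 place past the list end. The script was tested on simulated data. Python 3.11.15, numpy 2.4.6, pandas 2.3.3 and pysam 0.24.0 were used.

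All 10 genes are named. Of other pathway genes, those with a MYC promoter summit, with equal-length summit numbers that do not overlap, or in the chemokine stretch are named, as are the 3 genes closest in percentile to the gene with the best median rank; other names followed their values. The genes and lists were chosen with earlier results of these data known, and the rank comparison was added after seeing the data. Alternatives were the window, the score minimum, equal length, the TSS set, merging of close summits, the rank measure, the replicate block and leaving out each library. Other prostate markers are not reported here.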

Additional observations from a re-analysis of the deposited data

How the results depend on the processing

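Of 61 alternative values of the counts of genes, 47 stayed within 1.5 times the main value and 14 did not. Of 260 for POL2 and MYC summit numbers at single genes, 232 stayed within the replicate spread, 23 moved and 5 changed sign. Genes without a MYC summit in any library had a MYC difference of 0 in every setting, so those values could not move. The count of genes with a POL2 promoter summit in at least 2 SLK-KO libraries was 4 in place of 10 with lists of equal length. The count with a MYC promoter summit was 0 in place of 2 with a score of at least 5, a score of at least 10 or lists of equal length, and between 1 and 2 when a library was left out (1 without SLK-KO replicate 1 or 3). The count with more POL2 summits in every SLK-KO library was 1 in place of 0 (IL6) with a score of at least 5 or 10, and between 0 and 2 when a library was left out. The count with a better rank in SLK-KO was 2 in place of 1 by percentile (background 23.2%) or by rank in full lists, and between 1 and 2 when a library was left out (LIF was added without SLK-KO replicate 1). The count with a worse rank was 0 in place of 3 by percentile (background 0.288%), and between 3 and 4 when a library was left out. The difference in POL2 summit number at NFKB2 was 0.333 with a score of at least 5 or 10 (-0.333 as reported), at TNFAIP3 0.333 with a score of at least 10 (-0.333 as reported), and at RELB -0.333 with a score of at least 10 and -1 with lists of equal length (0.333 as reported). The cause was not tested.

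No pairing by replicate number was seen: same-numbered libraries correlated at 0.0525, -0.00876 and -0.0157 (POL2) and 0.0211, 0.0525 and -0.0206 (MYC) in their deviations. Whether same-numbered libraries were prepared together is not known. With the replicate block the differences in POL2 summit number keep their size (1.67 at IL6, exact sign-flip p = 0.25); the p-values lay between 0.25, the smallest that 8 sign flips can give, and 1, and none passed the threshold with or without the block. With 3 libraries a group, unknown read depth and lists of unequal length, a missing summit was not listed and is not shown to be absent.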
